A study of Mus musculus with 4 samples.

Results

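The 10 genes described here mark neurons that sense itch, and their RNA was measured in bulk in the dorsal root ganglia of mice, which hold the cell bodies of the sensory neurons of the body wall and limbs. They were chosen by name, as genes of the pruriceptor class that makes the peptides Nppb and Sst: the peptide genes Nppb, Sst and Nts, the cytokine receptor genes Il31ra, Osmr and Il4ra, the leukotriene receptor gene Cysltr2, the serotonin receptor genes Htr1f and Htr1d, and the histamine receptor gene Hrh1. Of the 10, 9 had a value among the 14405 genes of the expression matrix, and Hrh1 was not analysed here. Each gene of that matrix reached 1 FPKM (fragments scaled by transcript length and by the mapped fragments of the library) in at least 1 sample.

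The ganglia came from mice of 10 weeks and of a strain labelled Mixed. The 2 control samples were labelled wild type, with no allele or transgene named. The 2 mutant samples carried the genotype Prdm12-/Fl; AvilCreERT2/+, that is 1 null and 1 floxed allele of Prdm12 with a tamoxifen-inducible Cre under the control of Avil, a gene of sensory neurons at large and not of itch neurons alone. A null allele is carried by every cell of the animal. The labels name no tamoxifen dose or date and no Cre or null allele in the controls. They do not say whether samples were single animals or pools, so the p-values reflect only how these samples spread, in part perhaps technically.

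Itch is carried by small unmyelinated sensory neurons. In one class of them, skin signals are read by the interleukin-31 receptor, a pair of the chains Il31ra and Osmr, and by receptors for leukotrienes, serotonin and the type 2 cytokines, which act through Janus kinases and STAT factors or through G proteins. These neurons release Nppb (B-type natriuretic peptide), which excites itch-relaying neurons of the dorsal horn through Npr1, and somatostatin, which inhibits spinal interneurons. Prdm12 is a transcriptional regulator needed for the pain and itch neuron lineage to form, and the study's title contrasts its loss in development with its loss in mature nociceptors.

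The results turn on Nppb, Il31ra and Sst, and stretches of DNA before their start sites are given here with the motifs they hold. All 10 genes matched a RefSeq window on GRCm38.p6, and the 250 bases before each start were searched on both strands for 3 motifs. These were the cAMP response element TGACGTCA, the TATA box TATAAA and the STAT site TTCNNNGAA, and no match overlapped another in these windows. The whole window is given for Il31ra and the 30 bases around the motif for Nppb and Sst, with the motif in capitals. Whether these motifs act on the genes was not tested.
Il31ra, chr13:112580663-112580912, minus strand: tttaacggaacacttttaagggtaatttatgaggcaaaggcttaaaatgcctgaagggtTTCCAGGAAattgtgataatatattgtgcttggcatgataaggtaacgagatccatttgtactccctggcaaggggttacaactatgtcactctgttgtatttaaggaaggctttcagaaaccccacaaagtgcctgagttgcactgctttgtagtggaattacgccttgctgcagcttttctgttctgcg
Nppb, chr4:147985857-147985886, plus strand: actcagccccagTATAAAaggcagaggcac
Sst, chr16:23890874-23890903, minus strand: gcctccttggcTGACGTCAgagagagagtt
Among the 10 genes, the STAT site was found in the window of Il31ra alone, the TATA box in that of Nppb alone and the cAMP response element in that of Sst alone. Of 32851 mouse windows of the same length, 7.02% held the STAT site, 12.4% the TATA box and 1.55% the cAMP response element. The Il31ra site began 191 bases before the start, the Nppb box 31 bases and the Sst element 48 bases. The windows of Il31ra and Osmr, whose products pair, differed in base composition, with 42% G and C and 4 CpG dinucleotides against 66% and 18, where the median window had 52.4% and 6. They differ also in exon overlap, given below.

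In GENCODE M21 on GRCm38, Nppb lies on chromosome 4 from 147985788 to 147987205, Sst on chromosome 16 from 23889573 to 23890958 and Nts on chromosome 10 from 102481756 to 102490486. Il31ra spans chromosome 13 from 112519898 to 112594360, with the gene of its relative Il6st 9812 bases away, and Osmr spans chromosome 15 from 6813577 to 6874969. The window printed for Il31ra falls inside the longest Il31ra gene model and overlaps no annotated exon, while the stretches of Nppb and Sst lie in exons of GENCODE models that start further upstream than the RefSeq ones. The Osmr window, compared with it above in base composition, lies in annotated exons over all its 250 bases. Cysltr2 lies on chromosome 14 from 73025603 to 73049114, Htr1f on chromosome 16 from 64924729 to 65105854, Htr1d on chromosome 4 from 136423524 to 136444398 and Il4ra on chromosome 7 from 125552120 to 125579474. Exons of Il31ra overlap the gene model Gm3226 on the same strand, and exons of Il4ra overlap Gm44876 on the other strand, so reads there may not be told apart.

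The labels were checked first. Prdm12 was lower in both mutants, with 7.58 and 10.7 FPKM in the wild types against 1.05 and 1.50 FPKM. The sensory neuron genes Avil, Isl1, Pou4f1, Prrxl1 and Prph were present in all 4 samples, with Prph between 403 and 854 FPKM. Libraries of 1 group differed in other tissue: the summed level of 10 skeletal muscle markers was 473 and 2425 FPKM in the wild types and 330 and 4833 FPKM in the mutants, and that of 7 adipocyte markers 464 and 751 against 271 and 2294 FPKM. Wild type 2 also stood apart from the other 3 samples in the sex-linked genes, with Xist at 21.1 FPKM and Eif2s3y at 0.0252 FPKM, where the others had Eif2s3y between 21.3 and 24.7 FPKM. FPKM totals ran from 620018 to 686830. In bulk ganglia, fewer neurons of a class and less RNA per neuron cannot be told apart.

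Nppb, Il31ra and Osmr, 3 of the 9 measured genes, had both mutant values below both wild type values, and no gene of the 9 had both above. Over all 14040 genes tested, both mutants lay below both wild types for 19.6% and above them for 12.5%. The other 6 genes overlapped between the groups. None of the 9 passed limma's test adjusted over all genes, and neither did any other gene (0 of 14040, smallest adjusted p = 0.175). At an unadjusted limma p under 0.05 there were 612 genes, or 4.36% (3.01% lower and 1.35% higher), and Nppb and Il31ra were among the lower ones. Taken as mutant minus wild type on log2(FPKM + 1), the median difference of the 9 was -0.06, and that of all genes tested was -0.00476. After quantile normalization the shares of all genes were 15.4% lower and 16.7% higher, and the same 3 genes were lower. Markers of other cells moved with the groups as well. All 6 measured erythrocyte markers of 8 listed were higher in both mutants without overlap and at an unadjusted limma p under 0.05, none of them at the adjusted one, and their summed level was 3401 and 3193 FPKM in the wild types and 6377 and 6506 FPKM in the mutants. Of 8 Schwann cell and myelin markers, 5 were higher without overlap, with sums of 10155 and 8031 FPKM in the wild types and 10006 and 20896 FPKM in the mutants, so mutant 2 stood apart. The part of these cells in the values of Nppb, Il31ra and Osmr was not tested.

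**Figure D1:**
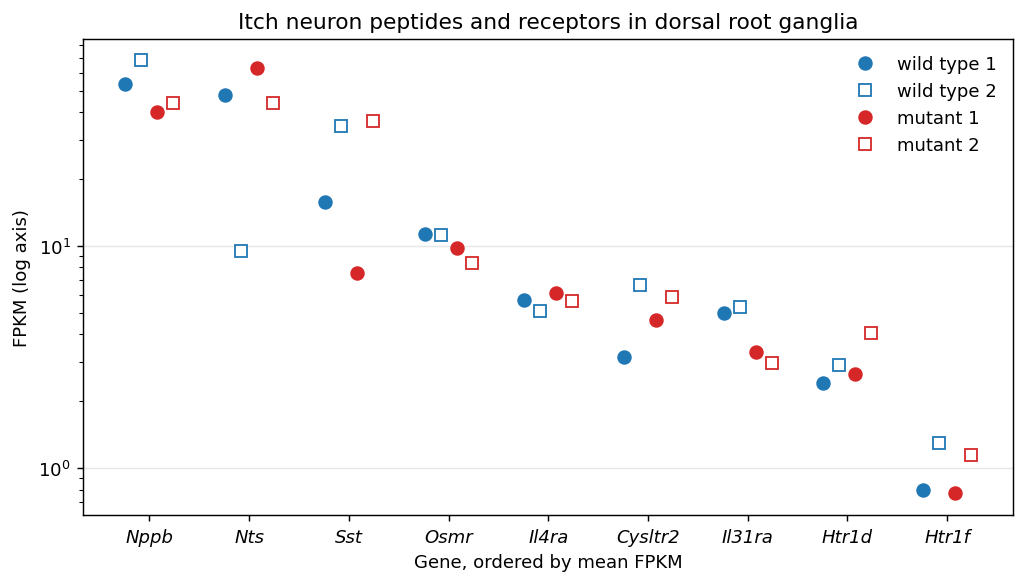
FPKM of the 9 measured genes in each of the 4 samples, on a log axis, ordered by the mean over the samples; circles are samples numbered 1 and squares samples numbered 2, wild type in blue and mutant in red. Nppb, Osmr and Il31ra have both red points below both blue points, while Sst and Nts spread 4.87-fold and 6.65-fold over the samples.

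By length-scaled level, the order of the means was Nppb, Nts, Sst, Osmr, Il4ra, Cysltr2, Il31ra, Htr1d and Htr1f, from 51.4 to 1.00 FPKM. Only 2 steps in that order separated neighbours in all 4 samples without overlap of their ranges: Osmr above Il4ra, and Htr1d above Htr1f. Nppb was above Nts in 2 of 4 samples and Il4ra above Cysltr2 in 2 of 4. The other neighbouring pairs kept their order in 3 of 4 samples.

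Nppb, the peptide transmitter of this class, was at 53.3 and 68.4 FPKM in the wild types (1 and 2) and 40.0 and 44.0 FPKM in mutant 1 and 2. Both mutants lay below both wild types, and the means were 60.8 ± 10.6 and 42.0 ± 2.83 FPKM (SD, n = 2 each), 1.45-fold lower. The log2 difference was -0.52 (standard error 0.183) and its 95% interval ran from -0.97 to -0.06 (limma unadjusted p = 0.0336, adjusted p = 0.994). Without wild type 2 the log2 difference was -0.34, and across the samples left out in turn it ran from -0.69 to -0.34. Wild type 2, the highest in Nppb, also stood apart in Xist and Eif2s3y, and the part of this in the Nppb values was not tested.

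Sst, which encodes the inhibitory peptide somatostatin, was at 15.7 and 34.6 FPKM in the wild types and 7.52 and 36.6 FPKM in the mutants. The lowest and the highest value were both mutant, so the groups overlapped entirely, and the spread within the mutants was 4.87-fold. The log2 difference of -0.45 had a 95% interval of -2.31 to 1.42 (limma adjusted p = 0.994). It was 0.63 without mutant 1 and -1.52 without mutant 2. The order of the samples by Sst, from mutant 1 through wild type 1 and wild type 2 to mutant 2, was also their order by the summed muscle and adipocyte markers, whose part in the Sst values was not tested.

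Nts, the neurotensin gene, was at 48.0 and 9.53 FPKM in the wild types and 63.4 and 44.1 FPKM in the mutants. Wild type 2 was low and the other 3 samples were high, with mutant 2 below wild type 1. The log2 difference of 1.25 had a 95% interval of -0.52 to 3.02 (limma adjusted p = 0.994), and it was 0.14 without wild type 2 and 2.36 without wild type 1. Wild type 2 was also the sample that stood apart in Xist and Eif2s3y, and the part of this in the Nts value was not tested. The peptides of this class therefore had 3 different patterns over the 4 samples: the ratio of Nppb to Sst FPKM was 3.39 and 1.98 in wild type and 5.31 and 1.20 in the mutants, and that of Nppb to Nts 1.11, 7.17, 0.630 and 0.996 in the same order.

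Both chains of the interleukin-31 receptor had lower values in both mutants. Il31ra, the chain that gives the receptor its ligand, was at 4.97 and 5.32 FPKM in the wild types and 3.34 and 2.97 FPKM in the mutants. Replicates agreed within 1.07-fold and 1.13-fold, and the groups did not overlap. The means were 5.15 ± 0.241 and 3.16 ± 0.265 FPKM (SD, n = 2 each), 1.63-fold lower, and the log2 difference was -0.56 (standard error 0.148) and its 95% interval ran from -0.94 to -0.19 (limma unadjusted p = 0.0107, adjusted p = 0.790). With each sample left out in turn it stayed between -0.63 and -0.50.

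Osmr, the chain shared with the oncostatin M receptor, was at 11.3 and 11.2 FPKM in the wild types and 9.77 and 8.35 FPKM in the mutants. The groups did not overlap, but the step was small, 1.24-fold by the means of 11.3 ± 0.0445 and 9.06 ± 1.00 FPKM (SD, n = 2 each). The log2 difference was -0.29 with a 95% interval of -0.66 to 0.08 (limma unadjusted p = 0.103, adjusted p = 0.994), and it was -0.19 without mutant 2. Within each library, Il31ra stood at 0.440 and 0.473 of the Osmr FPKM in the wild types and 0.342 and 0.356 in the mutants, a ratio that library scaling does not touch. Osmr also serves fibroblasts and other non-neuronal cells. All 9 fibroblast and meningeal markers were present, and their summed level was 24282 and 23746 FPKM in the wild types and 13984 and 9782 FPKM in the mutants. Most of the step in that sum was Ptgds, with means of 13077 and 3113 FPKM. Only Ptgds, Igf2, Slc6a13 and Apod were lower without overlap, while the other 5 (Col1a1, Col1a2, Dcn, Lum and Pdgfra) overlapped between the groups and Col1a1 had the higher mean in the mutants, 477 against 431 FPKM. Their part in the values of Osmr, and in those of Il31ra and Nppb, was not tested.

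Il4ra, the chain common to both receptors of interleukins 4 and 13, showed the narrowest spread of the 9 genes. Its values were 5.69 and 5.08 FPKM in the wild types and 6.17 and 5.67 FPKM in the mutants, and the groups overlapped. The log2 difference was 0.12 with a 95% interval of -0.25 to 0.48 (limma adjusted p = 0.994), and the upper end of that interval is a 1.40-fold higher level.

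**Figure D2:**
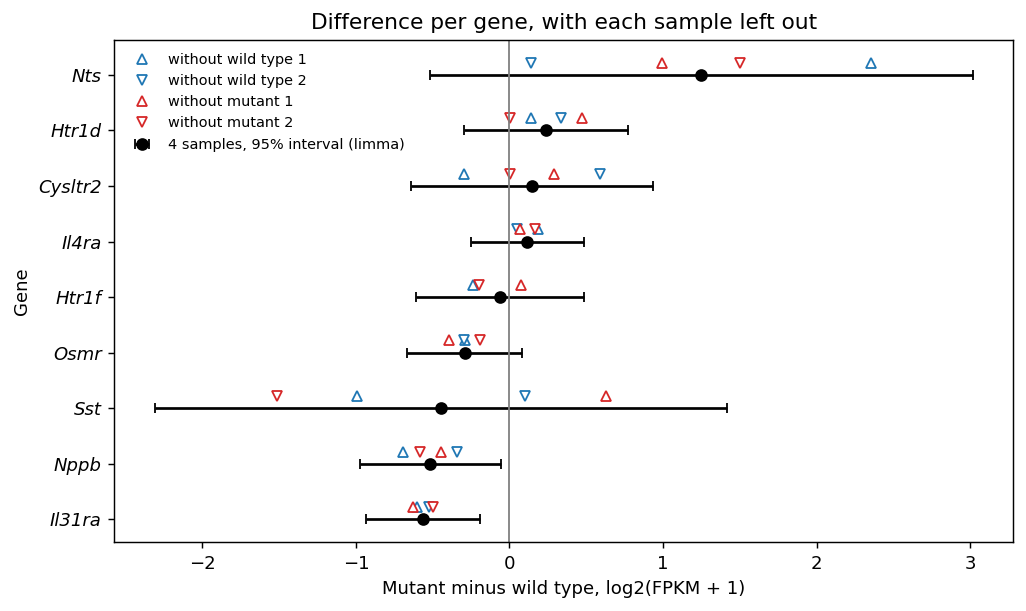
Mutant minus wild type difference on log2(FPKM + 1) for the 9 genes; black points and bars are limma's estimate and 95% interval from all 4 samples, and open triangles the estimate with 1 sample left out. Il31ra and Nppb stay below 0 with each sample left out, while the triangles of Sst run from -1.52 to 0.63.

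The G protein-coupled receptors overlapped between the groups. Cysltr2, a receptor for cysteinyl leukotrienes, was at 3.15 and 6.67 FPKM in the wild types and 4.66 and 5.89 FPKM in the mutants, both of them between the wild types. Its log2 difference was 0.15 with a 95% interval of -0.64 to 0.93 (limma adjusted p = 0.994), and it was -0.30 without wild type 1 and 0.59 without wild type 2. Htr1d, an inhibitory serotonin receptor, was at 2.41 and 2.90 FPKM in the wild types and 2.65 and 4.05 FPKM in the mutants. Mutant 2 was the high sample, and the log2 difference of 0.24 had a 95% interval of -0.30 to 0.77 (limma adjusted p = 0.994). Without mutant 2 it was 0.00120. Its relative Htr1f was the weakest gene, at 0.797 and 1.30 FPKM in the wild types and 0.768 and 1.14 FPKM in the mutants. Htr1f entered the test only through its wild type mean of 1.05 FPKM, beside a mutant mean of 0.954 FPKM, and its log2 difference was -0.06 with a 95% interval of -0.61 to 0.49.

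Sst, Cysltr2, Htr1f and Htr1d were higher in the sample numbered 2 than in the sample numbered 1 of either group. So were the summed levels of 14 pan-neuronal genes, at 4700 and 6147 FPKM in the wild types and 4988 and 7309 FPKM in the mutants, and of 14 nociceptor genes, at 2188 and 2615 against 2355 and 2473 FPKM. Nppb also had its higher value in the sample numbered 2 of either group, while Nts and Il4ra had the lower one there, Osmr likewise, and Il31ra differed in direction between the groups. Scaled to the mean log2(FPKM + 1) of the pan-neuronal genes rather than to their sum, the median of all genes moved to -0.18. Nppb was then at -0.69 and Il31ra at -0.74. With that scaling Nppb, Il31ra and Htr1f did not overlap between the groups, and Osmr did. Scaled in the same way to the nociceptor genes without Prdm12, Nppb was at -0.53 and Il31ra at -0.58 without overlap. Osmr overlapped, and Htr1d was higher in both mutants. With these scalings 10.4% and 4.14% of all genes were lower without overlap, and 3.43% and 9.84% higher. Neither Nppb (limma unadjusted p = 0.0558 and 0.114) nor Il31ra (0.0999 and 0.152) was then under 0.05. Nts was the only itch gene under it (limma unadjusted p = 0.00358 and 0.000348, adjusted p = 0.415 and 0.0701), with its groups overlapping. Of all 14040 genes, 359 and 319 were under 0.05. With these scalings limma took each gene's variance from its mean level alone, so these p-values do not reflect a gene's own spread. The standard error of Nts fell from 0.704 to 0.369 and 0.344, and that of Nppb rose from 0.183 to 0.360 and 0.337.

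**Figure D3:**
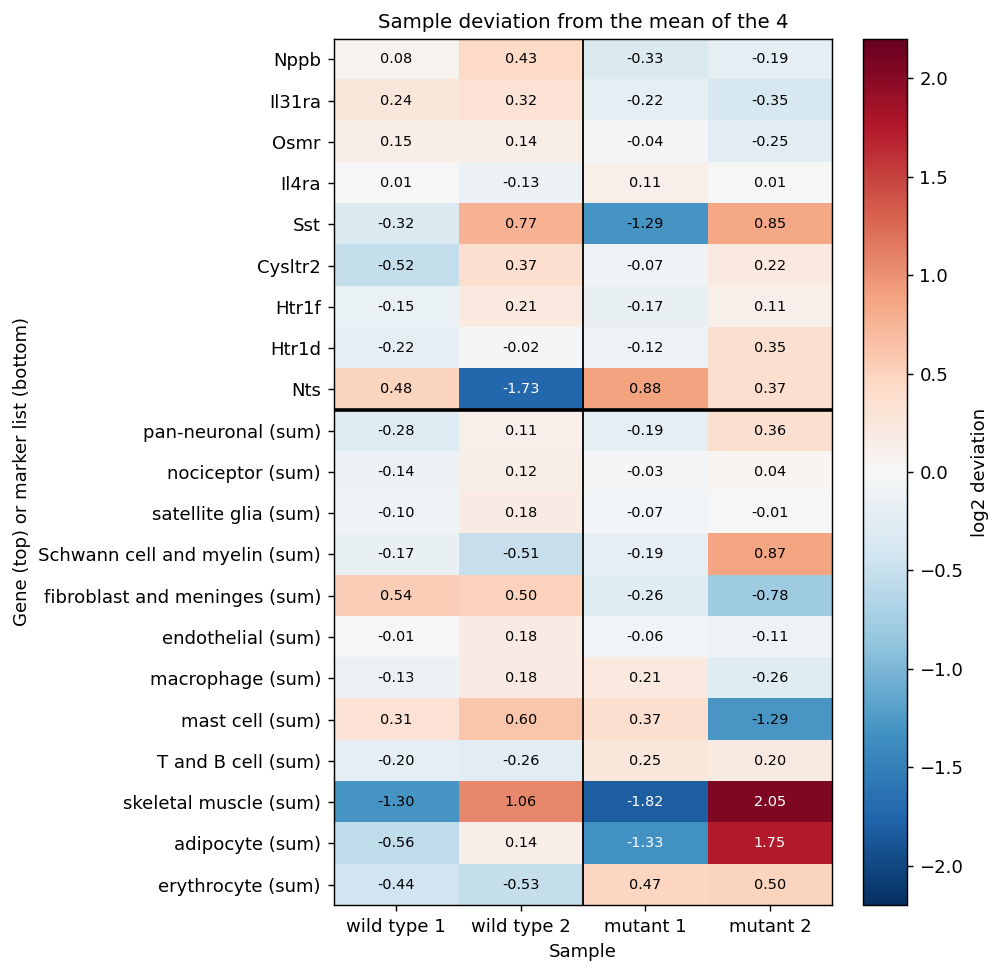
Deviation of each sample from the mean of the 4 samples, for log2(FPKM + 1) of the 9 genes (above the line) and for the log2 summed FPKM of 12 marker lists (below it); red is above the mean and blue below. Nppb, Il31ra and Osmr separate wild type from mutant by sign, Nts is low in wild type 2 alone, and Sst follows the sample order of the muscle and adipocyte lists.

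Among genes of at least 5 FPKM on average, those nearest to Nppb in their centred log2 values over the 4 samples were Cd55, Prkag2 and Fam32a, with root mean square distances of 0.0281, 0.0752 and 0.0811 log2 units. Cd55, a complement regulator found on nociceptors, was at 98.3 and 127 FPKM in the wild types and 72.5 and 77.9 FPKM in the mutants. With 4 samples such likeness was common: 489 of 9481 genes lay within 0.2 log2 units of Nppb. Only Dydc2 lay that near to Sst (0.0700), at 4.92 and 13.4 FPKM in the wild types and 2.25 and 13.5 FPKM in the mutants. Next came Pygm, the muscle glycogen phosphorylase gene (0.242), and the capillary gene Gpihbp1 (0.262). Between the 9 genes themselves, the nearest pairs were Nppb with Il31ra (0.137) and Il31ra with Osmr (0.143).

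The receptors and processing enzymes of the peptides were given by a list of 23 genes, of which 16 were tested. Of these, 4 were lower and 5 higher without overlap, beside 19.6% lower and 12.5% higher over all genes tested. Their median log2 difference was -0.04, and none passed the adjusted test. The most abundant were the granule enzymes Cpe and Pam, which trim and amidate peptides (log2 differences -0.09 and -0.16), and the C-type natriuretic peptide receptor Npr2, which overlapped between 22.1 and 24.7 FPKM. Npr1, the receptor of Nppb, was at 6.59 and 5.26 FPKM in the wild types and 5.12 and 4.06 FPKM in the mutants, lower without overlap (log2 difference -0.31, limma unadjusted p = 0.146). Npr3, which clears natriuretic peptides, was at 3.01 and 2.62 against 1.61 and 1.56 FPKM (-0.56, limma unadjusted p = 0.0153, adjusted p = 0.861). The somatostatin receptor Sstr4 was at 9.16 and 4.76 against 4.13 and 1.61 FPKM (-1.06, limma unadjusted p = 0.0450), and Sstr2 was near 1 FPKM throughout, from 0.878 to 1.12. The neurotensin receptor Ntsr2 was at 0.995 and 0.941 FPKM in the wild types and 1.48 and 2.83 FPKM in the mutants (0.65, limma unadjusted p = 0.0447). Npr3, Sstr4 and Ntsr2 are named here after their values were seen.

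Of 23 partner chains and JAK-STAT genes, 21 were tested, and 3 were lower and 3 higher without overlap (median log2 difference 0.04). Over all genes tested the shares were 19.6% and 12.5%. Il6st, the gp130 chain that pairs with Osmr to read oncostatin M, was the most abundant at 71.6 and 60.1 FPKM in the wild types and 63.8 and 45.6 FPKM in the mutants, with overlap. Jak1, the kinase bound by these receptors, was at 50.3 and 57.1 against 45.7 and 55.4 FPKM, and Stat3 at 39.8 and 46.2 against 43.8 and 49.9 FPKM, both overlapping. Il13ra1, which pairs with Il4ra, was at 16.3 and 13.0 FPKM in the wild types and 11.3 and 6.68 FPKM in the mutants (log2 difference -0.68, limma unadjusted p = 0.0469, adjusted p = 0.994), while Il4ra itself overlapped. The part of the fibroblast and meningeal cells in the Il13ra1 values was not tested. Lifr, a relative of Osmr, had the opposite sign, at 12.1 and 15.8 against 16.4 and 17.5 FPKM (0.28, limma unadjusted p = 0.173). Of 8 cytokine ligands only Il33 and Tslp were tested, with Il33 at 36.2 and 30.5 against 33.6 and 18.9 FPKM, and Tslp between 0.975 and 1.97 FPKM.

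Other amine and leukotriene genes mostly overlapped between the groups. Of 28 listed, 15 were tested, with 3 lower and 1 higher without overlap, beside 19.6% and 12.5% of all genes. Their median log2 difference was -0.02. The most abundant were Alox5ap, which presents arachidonic acid to the leukotriene pathway, the serotonin-gated channel Htr3a and the amine oxidase Maoa, at log2 differences of 0.12, -0.15 and -0.07. Of 20 transduction genes, 18 were tested, with 1 lower and 0 higher without overlap, beside the same shares of all genes. Their median was 0.02. Plcb3 is a phospholipase through which some histamine and serotonin receptors signal. It was at 46.5 and 67.1 FPKM in the wild types and 46.9 and 61.4 FPKM in the mutants. The adenosine triphosphate receptor P2rx3 had a log2 difference of 0.19 and the G protein subunit Gnaq of -0.13, the 1 gene of the list that did not overlap. The channels that convert itch signals to current overlapped as well: Trpv1 was at 12.7 and 15.5 against 11.5 and 17.2 FPKM (0.01), and Trpa1 at 6.18 and 6.58 against 6.75 and 6.36 FPKM (0.03).

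**Figure D4:**
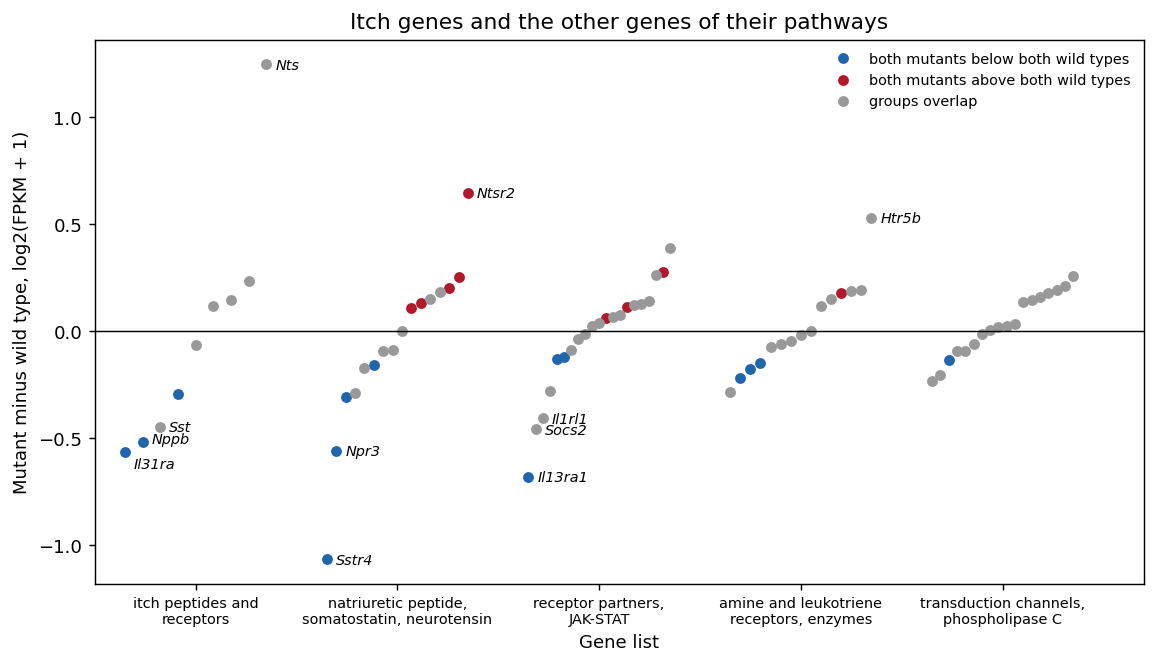
Mutant minus wild type difference on log2(FPKM + 1) for each tested gene of the 9 itch genes and of 4 pathway lists, ordered within each list; blue and red mark genes whose groups did not overlap. Il13ra1 and Sstr4 lie lowest in their lists and Nts highest of the genes drawn, with its groups overlapping.

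Markers of mast cells, which release the histamine and leukotrienes that these receptors read, all had a negative log2 difference (median -0.88). It ran from -1.73 for Fcer1a to -0.02 for Hdc. The summed level of 8 mast cell markers, all present, was 371 and 455 FPKM in the wild types and 388 and 123 FPKM in the mutants, so mutant 2 stood apart from the other 3. That sum is mostly the proteases Mcpt4, Tpsb2 and Cma1, which overlapped between the groups. Fcer1a, a chain of the immunoglobulin E receptor, was at 4.81 and 7.24 FPKM in the wild types and 1.29 and 0.890 FPKM in the mutants (limma unadjusted p = 0.000427, adjusted p = 0.261). Kit, Cpa3 and Ms4a2 were also below both wild types in both mutants. Thus 4 of the 8 were lower without overlap, beside 19.6% of all genes tested. Hdc, the histamine-forming enzyme gene, lay between 2.42 and 3.24 FPKM with overlap. Macrophage markers, 10 of 10 present, summed to 840 and 1040 against 1061 and 767 FPKM. T and B cell markers, 6 of 7 present, summed to 15.4 and 14.7 against 21.0 and 20.2 FPKM. The part of these immune cells in the values of Il4ra, Osmr and Cysltr2 was not tested.

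The authors' deposited table of 150 changed genes holds none of the 10 itch genes and none of the genes of the 5 pathway lists. By its label, that table keeps only genes past a log2 change of 1, a q-value limit and a minimum of 1 FPKM. By group means no measured itch gene changed that much, the largest being Nts (1.87-fold higher) and Il31ra (1.63-fold lower). Their absence thus cannot show whether they changed by less. Of the pathway genes, Sstr4 (2.43-fold lower) and Ntsr2 (2.23-fold higher) did change that much by means. Ntsr2 had a wild type mean of 0.968 FPKM and a mutant mean of 2.16 FPKM. The label does not say how the FPKM minimum was applied. In the authors' deposited table Prdm12 has a log2 change of -2.84 with q = 0.00742.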

How the data were processed

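RNA was measured in dorsal root ganglia of 2 wild type and 2 mutant samples, grouped and numbered by their titles. The authors deposited FPKM values for 14405 genes, and a list of 150 genes with group FPKM, log2 fold changes, p-values and q-values in Cuffdiff's column format, per the file headers. The tools named in the submitters' processing notes are CASAVA, TopHat2 (2.1.2) and Cufflinks (2.2.1), on the build mm10. What each did, the strand of the libraries and how libraries were scaled are not stated. Since FPKM keep no read counts, depth is not known and counting error is not given.

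The 14040 genes whose mean reached 1 FPKM in a group were tested on log2(FPKM + 1) with limma (3.58.1, R 4.3.3), mutant minus wild type, with a mean trend and Benjamini-Hochberg adjustment over all of them. The threshold was 0.05, and the script was tested on simulated data. This scale understates the change of weak genes. An exact permutation test of 2 against 2 cannot go below p = 0.333. The members, lists and tests were chosen with earlier results of these data known, and the lists were not tested as sets. Named genes were the members, Prdm12, Avil, the 3 most abundant genes of each pathway list, direct signalling partners, and for likeness the 3 nearest genes to Nppb and to Sst. Alternatives were other pseudocounts (0.1 and 5), filters, scalings and variance prior, a replicate block, and each sample left out. Positions are from GENCODE M21 and windows from RefSeq, both on GRCm38 (mm10).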

Additional observations from a re-analysis of the deposited data

How the results depend on the processing

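Il31ra and Nppb kept their sign under each of the 16 alternatives, from -0.74 to -0.31 and from -0.69 to -0.34 on the log2 scale, with adjusted p of at least 0.295 and 0.242. The values of Il31ra furthest from the others came from a pseudocount of 5 (-0.31) and from scaling to the pan-neuronal genes (-0.74). Osmr ran from -0.46 to -0.19 and Nts from 0.14 to 2.36. Sst reversed without wild type 2 (0.10), without mutant 1 (0.63) and in the samples numbered 2 alone (0.081, an alternative added after seeing the data). Cysltr2 reversed with scaling to the pan-neuronal genes (-0.027), without wild type 1 (-0.30) and in the samples numbered 2 alone (-0.15). With each sample left out in turn Sst ran from -1.52 to 0.63, Cysltr2 from -0.30 to 0.59 and Htr1f from -0.24 to 0.075. Htr1f fell under the filter without wild type 2, and Htr1f and Htr1d with a minimum of 5 FPKM, so these gave no value. Il4ra reversed with the pan-neuronal scaling (-0.056) and Htr1f without mutant 1 (0.075). The number of genes called over all genes was 65 with the pan-neuronal scaling, 58 with scaling to the nociceptor genes, 61 with a replicate block and 0 to 5 with a sample left out, 5 of them without wild type 1; no itch gene was among these calls. Itch genes lower without overlap numbered 3 to 5 with a sample left out, 5 without wild type 1 and without mutant 2, while the share of all genes lower rose from 19.6% to between 32.8% and 37.2%. Those higher numbered 2 with any sample left out, where 22.2% to 40.6% of all genes were higher, and 1 with the nociceptor scaling, where 9.84% were. In the pair of samples numbered 1 and in the pair numbered 2, 5 were lower and 4 higher, beside 52.0% and 51.8% of all genes lower and 48.0% and 48.2% higher. Nppb, Il31ra, Osmr and Htr1f were lower in both pairs, and Nts, Htr1d and Il4ra higher in both. The median over the itch genes was -0.29 with a minimum of 5 FPKM, where 7 were tested, and ran from -0.29 to 0.07 with a sample left out. The titles number the samples and do not say whether samples of the same number were paired. The differences between samples 1 and 2 correlated between the groups at r = 0.481 over genes. They had the same sign in both groups for 8 of 9 itch genes. With the replicate block Nppb had an adjusted p of 0.242, Il31ra of 0.295 and Nts of 0.373. FPKM without read depth limit what can be said of genes near 1 FPKM, such as Htr1f and Sstr2.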
